A study of Mus musculus with 6 samples.

Results

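Cytosolic ribosomal protein genes encode the structural proteins of the ribosome outside mitochondria. They were taken as the protein-coding genes of GENCODE vM21 whose symbol is Rps or Rpl with a number and at most 1 letter (a, x, y or l), Rplp0 to Rplp2, or Rpsa. A mean of at least 0.5 FPKM (fragments per kilobase of exon, scaled by a total set for each library) over 6 libraries was also required. Of 80 genes with such symbols, 77 passed, 31 of the small (40S) and 46 of the large (60S) subunit, among 11672 genes at that level and 54532 identifiers in all. The 3 genes left out were Rpl10l, listed at 0 in every library, Rpl3l, above 0 in 1 library, and Rpl39l, at 0.250, 0 and 0 FPKM in WT and 0.758, 0 and 0.0633 FPKM in LKO. Just inside stood Rps10, with 0.494, 0.541 and 1.02 FPKM in WT and 1.98, 0.471 and 0.182 FPKM in LKO. All 77 were above 0 in all 6 libraries. Rpl29, with WT values of 0.783, 0.252 and 0.398 FPKM, passed the rule only through 2 LKO libraries and had to differ, so counts are read with that in mind. Ribosomal protein genes with other symbols, such as Rps3a1 and Fau, are not matched by this rule.

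The libraries came from liver of untreated mice, 3 labelled wild type (WT) and 3 labelled as a liver-specific knockout of Arid2 (LKO). ARID2 is a subunit of the PBAF chromatin remodelling complex, and the series title names hepatic steatosis and ubiquitination of the kinase JAK2. The labels used here do not give the Cre driver, the strain, the sex or the age, nor whether each library came from its own animal, so the tests rest on the spread among these libraries, which may be technical. Arid2 FPKM was 2.65, 1.74 and 1.79 in WT (replicates 1, 2 and 3, the order used throughout) and 2.55, 1.33 and 2.04 in LKO. The targeted gene overlapped between the groups and does not check the labels, and LKO below means a library labelled LKO. Recovered depth was 13947787 to 18159285 reads per library. Both libraries numbered 1 stood apart, with 2003 (WT) and 2368 (LKO) genes at 1 to 5 reads against 3913 to 4263 in the other 4. Hepatocyte markers summed to between 62880 and 89105 FPKM in each library, as liver tissue would give.

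Every ribosome holds a set of about equally abundant proteins, and cells make them in matched amounts. Their mRNAs are short, very abundant and stable, and most begin with a cytosine inside a run of pyrimidines, the 5′ terminal oligopyrimidine (TOP) motif. The kinase mTOR, through the RNA-binding protein LARP1, sets how strongly such mRNAs are translated, so the mRNA level alone does not give the rate of ribosome production. In liver, ribosomal proteins serve a large output of secreted plasma proteins. The same proteins left many intronless copies in the genome through reverse transcription, most of them pseudogenes nearly identical to the parent mRNA.

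The windows below show the sequence around the annotated starts of 8 of these genes, because pyrimidine runs near the start were more frequent in these genes than in others. They were read from RefSeq promoters on GRCm38.p6, 20 bases on each side of the start, 5′ to 3′ on the gene's strand, and capitals mark the longest run of C and T in each window. The first 6 were picked after their sequences were seen, to show long runs. Not every member has one: the longest run is 7 bases in Rps21 and 6 in Rps13, where it lies downstream of the start. Where a gene has several annotated starts, 1 is shown. Rps21 and Rps13, the other pair, are shown because their levels are described in detail further on.
Rplp2 (chr7:141447631-141447670, plus strand): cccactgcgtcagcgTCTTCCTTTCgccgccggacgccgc
Rps6 (chr4:86857348-86857387, minus strand): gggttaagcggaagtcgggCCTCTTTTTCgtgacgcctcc
Rps27 (chr3:90213629-90213668, minus strand): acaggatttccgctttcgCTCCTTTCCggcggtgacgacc
Rpl27a (chr7:109519175-109519214, plus strand): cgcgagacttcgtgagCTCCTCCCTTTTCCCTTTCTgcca
Rpl34 (chr3:130730318-130730357, minus strand): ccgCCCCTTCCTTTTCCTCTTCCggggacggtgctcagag
Rpl28 (chr7:4792945-4792984, plus strand): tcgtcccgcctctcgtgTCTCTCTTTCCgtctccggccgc
Rps21 (chr2:180257359-180257398, plus strand): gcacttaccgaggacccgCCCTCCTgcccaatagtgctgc
Rps13 (chr7:116334171-116334210, minus strand): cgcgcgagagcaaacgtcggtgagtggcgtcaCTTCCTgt

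RefSeq promoters were matched for 57 of the 77 genes, Rpl29 not among them, and a gene with several annotated starts was counted if any held the letters. A run of at least 8 pyrimidines on the sense strand lay in the window of 29 of them (50.9%), against 19.0% of 8054 tested protein-coding genes with a promoter, and the median longest run was 8 against 5 bases. The letters CTTTC, which can lie inside such a run, stood on the sense strand of 18 windows (31.6%), against 5.70% of those genes. CTTTTC, which does not contain CTTTC, was in 5 windows (8.77%), against 1.51%. In the whole 300-base promoter, on either strand, CTTCCG occurred in 40 (70.2%) against 36.9%, and AAGATGG in 9 (15.8%) against 8.93%. TATAAA on the sense strand was in 5 (8.77%) against 5.59%. The members are part of the tested genes, and a match is a description of letters, not a binding site.

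Ribosomal protein mRNAs were among the abundant transcripts of these livers. The median over the 77 genes of the mean level was 98.1 FPKM, at the 95.8th percentile of tested protein-coding genes, with quartiles of 43.1 and 157 FPKM, and 74 genes had a mean of at least 10 FPKM. The deposited values divide by merged exon length, whose median ratio to the length of the principal transcript was 2.35 for these genes. Recomputed per kilobase of principal transcript, the median was 225, with quartiles of 148 and 329. The transcripts were short, with a median of 681 bases (271 to 3706) against 2645 for tested protein-coding genes, and their GC content was 51.8% against 50.7%.

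On the scale per kilobase of principal transcript, the highest level was that of Rplp1, with a mean of 865. Rplp1 and Rplp2 are the acidic stalk proteins that dimerise and recruit elongation factors, and Rplp0 anchors them to the 60S subunit. Rplp2 stood at 260 and Rplp0 at 223 on this scale. Rps18 (710), Rpl36 (655) and Rps14 (639), an rRNA-binding protein of the 40S platform, followed Rplp1. The lowest were Rps10 (3.63), Rpl24 (4.45), Rpl13a (12.4) and Rpl29 (30.3). For Rps10, Rpl24 and Rpl29 most matching reads lay in pseudogene copies, which are described further on.

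**Figure D1:**
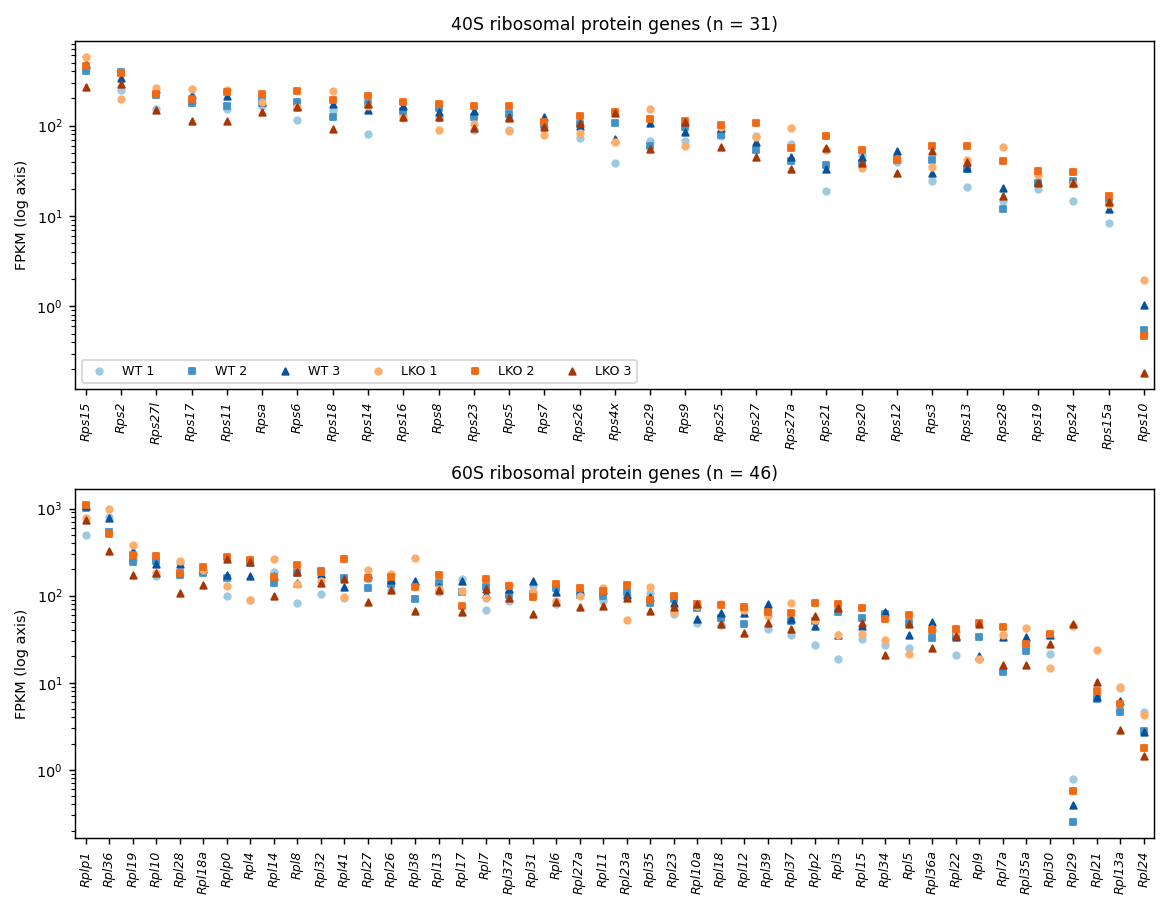
Deposited FPKM (log axis) of each of the 77 ribosomal protein genes in each library, ordered by mean within the 40S (upper panel) and 60S (lower panel) subunits, with WT in blue and LKO in orange. Most genes span about the same range in both genotypes, and Rpl29 is split between 4 libraries below 1 FPKM and LKO replicates 1 and 3 at 45.3 and 46.7 FPKM.

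The pool of ribosomal protein mRNA overlapped between WT and LKO livers. Summed over the 77 genes it was 7738, 9257 and 9998 FPKM in WT and 9946, 11023 and 7551 FPKM in LKO. The LKO libraries thus held both the highest and the lowest sum, and the means were 8998 ± 1152 (SD, n = 3) and 9507 ± 1777 FPKM (SD, n = 3). The genes took 2.66% ± 0.102 (SD, n = 3) of the FPKM of nuclear protein-coding genes in WT and 2.60% ± 0.338 (SD, n = 3) in LKO. Their share of all reads was 1.44% ± 0.0738 (SD, n = 3) and 1.43% ± 0.190 (SD, n = 3). In whole-tissue RNA, fewer cells of a type and less RNA per cell cannot be told apart.

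None of the 77 genes rose or fell in LKO by limma on log2(FPKM + 1) at an adjusted p under 0.05, against 0.0428% of all genes tested (0.00857% higher and 0.0343% lower). The smallest adjusted p among the members was 0.390, for Rps21, and voom on recovered reads also called 0. At an unadjusted p under 0.05, 2 members were higher, Rps21 and Rpl29 (the latter a gene that had to differ), and 0 were lower, against 9.22% of all genes (4.28% higher and 4.93% lower). An absolute difference above 1 was fitted for 3 members, Rpl29, Rps28 and Rps21, against 5.54% of all genes. The fitted difference was above 0 for 48 and below 0 for 29 members, while 54.1% of all genes were above 0. Its median over members was 0.08 (interquartile range -0.08 to 0.31), beside 0.03 over all genes tested. The sign of this median was not stable: it was -0.01 when libraries were scaled to their nuclear protein-coding total, -0.03 after quantile normalization, -0.07 without LKO replicate 2 and 0.25 without LKO replicate 3. Without both libraries numbered 1 it was -0.04.

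These data do not exclude moderate changes of single genes. The 95% interval of the difference included 0 for 75 of the 77 members, and the median distance from the estimate to either end was 0.84 on the log2 scale, wider than the 0.70 of all genes tested. With array quality weights, which set the libraries' weights between 0.299 (LKO replicate 1) and 5.44 (WT replicate 3), 1 member rose (Rps21, adjusted p = 0.0303, limma) and 1 fell (Rpl17, adjusted p = 0.0485, limma). Under those weights 621 genes rose and 574 fell among all tested.

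**Figure D2:**
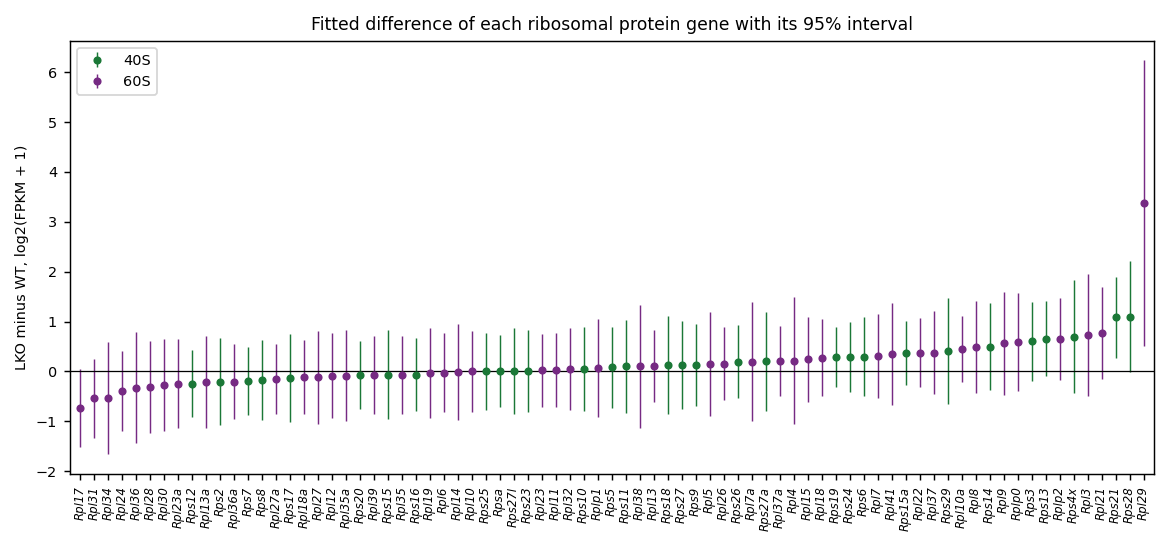
Fitted difference (LKO minus WT, log2(FPKM + 1), points) with its 95% interval (bars) for the 77 genes, ordered by size, with 40S genes in green and 60S genes in purple. The intervals of 75 genes cross 0, and Rpl29 has both the largest difference, 3.37, and the widest interval.

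Every LKO library was above every WT library for 6 members (7.79%), Rps21, Rps13, Rpl21, Rplp2, Rpl10a and Rpl22, against 8% of all genes tested. For 0 members were all LKO libraries below all WT libraries, against 7.42% of all genes. The first share is near the background and is no result about these genes. Both counts move when a library is left out, which also makes separation easier for all genes, whose shares are given in parentheses. Dropping LKO replicate 1 gave 16 members above and 5 below (21.1% and 17.3% of all genes). Dropping LKO replicate 2 gave 7 and 5 (10.3% and 9.11%), and LKO replicate 3 gave 16 and 0 (15.5% and 14.7%). Dropping WT replicate 1 gave 7 and 2 (11.6% and 10.9%), WT replicate 2 gave 10 and 2 (12.8% and 11.5%), and WT replicate 3 gave 8 and 0 (10.3% and 9.60%). Without both libraries numbered 1, 17 members (22.1%) were above and 8 (10.4%) below, against 25.2% and 21.6% of all genes.

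Among the 40S genes, Rps21 had the smallest p. Rps21 is a small protein on the solvent side of the 40S subunit and lies at chr2:180257377-180258445 (mm10). It was at 19.0, 36.9 and 33.4 FPKM in WT and at 53.4, 77.1 and 57.3 FPKM in LKO. The lowest LKO library was above the highest WT library, and the difference was 1.08 ± 0.34 (SE, limma, 95% interval 0.28 to 1.89, adjusted p = 0.390). Pseudogene copies held 0.109% of its matching reads, so the copies hardly enter this value.

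Rps13, a 40S core protein, was at 21.0, 33.4 and 33.9 FPKM in WT and at 41.2, 59.1 and 39.5 FPKM in LKO, a difference of 0.66 (limma, adjusted p = 0.604). Rps28, a protein near the mRNA exit, was at 14.6, 12.0 and 20.5 FPKM in WT and at 57.6, 40.5 and 16.5 FPKM in LKO. Its LKO replicate 3 lay inside the WT range, and the difference was 1.10 ± 0.47 (SE, limma, adjusted p = 0.548). Rps14 was at 81.8, 175 and 148 FPKM in WT and at 166, 211 and 173 FPKM in LKO, so the groups overlapped. Rps4x, an X-linked 40S protein, was at 38.8, 106 and 71.9 FPKM in WT and at 65.3, 143 and 138 FPKM in LKO, a difference of 0.70 (limma, adjusted p = 0.744). In both genotypes its lowest value was in the library numbered 1.

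Other 40S proteins with well-known roles overlapped between the genotypes. Rps6, the substrate of S6 kinase and a usual readout of mTOR activity, was at 115, 181 and 165 FPKM in WT and at 161, 244 and 162 FPKM in LKO. Rps3, which lines the mRNA entry and also acts in DNA repair, was at 24.2, 41.7 and 29.6 FPKM in WT and at 34.5, 59.5 and 53.0 FPKM in LKO, a difference of 0.61 (limma, adjusted p = 0.656). Rps19, the gene most often mutated in Diamond-Blackfan anaemia, was at 19.99, 23.0 and 23.8 FPKM in WT and at 28.2, 31.3 and 23.1 FPKM in LKO. The groups overlapped for each of these genes. Rpsa, the laminin receptor and 40S protein, ranged from 165 to 186 FPKM in WT and from 140 to 222 FPKM in LKO.

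The paralogs Rps27 and Rps27l encode alternative versions of 1 protein of the 40S subunit, and Rps27l is known as a p53 target. Rps27 was at 75.9, 54.4 and 66.5 FPKM in WT and at 74.9, 107 and 45.1 FPKM in LKO, a difference of 0.13 ± 0.38 (SE, limma, adjusted p = 0.955). Rps27l was at 152, 216 and 256 FPKM in WT and at 261, 224 and 147 FPKM in LKO, a difference of 0.01 ± 0.37 (SE, limma, adjusted p = 0.997). For both paralogs the LKO values enclosed the WT range. Rps27a, whose product is made as a fusion with ubiquitin, was at 63.0, 40.9 and 44.6 FPKM in WT and at 93.6, 56.7 and 32.9 FPKM in LKO.

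Stalk proteins of the 60S subunit were not alike in their values. Rplp2 was at 27.0, 51.2 and 45.2 FPKM in WT and at 52.3, 82.3 and 58.6 FPKM in LKO, without overlap (difference 0.66, limma, adjusted p = 0.639). Rplp0 was at 98.2, 160 and 170 FPKM in WT and at 127, 279 and 260 FPKM in LKO, where LKO replicate 1 lay inside the WT range (difference 0.59, limma, adjusted p = 0.752). Rplp1 was at 502, 1017 and 1063 FPKM in WT and at 780, 1088 and 738 FPKM in LKO, a difference of 0.07. WT replicate 1 was the lowest of the 6 libraries for all 3 stalk genes.

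Rpl5 and Rpl11 form the 5S particle, which also binds the p53 regulator MDM2, and Rpl23 binds MDM2 as well. Rpl5 was at 25.1, 48.7 and 35.7 FPKM in WT and at 21.3, 59.8 and 46.9 FPKM in LKO. Rpl11 was at 86.1, 98.2 and 115 FPKM in WT and at 123, 113 and 75.2 FPKM in LKO. Rpl23 was at 60.7, 90.4 and 82.9 FPKM in WT and at 65.3, 99.0 and 73.7 FPKM in LKO. The groups overlapped for all 3, and their fitted differences were 0.15, 0.03 and 0.02.

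Rpl3, which reaches the peptidyl transferase centre, was at 18.8, 65.0 and 35.1 FPKM in WT and at 35.2, 80.9 and 71.1 FPKM in LKO (difference 0.73, limma, adjusted p = 0.756). Its muscle paralog Rpl3l was listed at 0.0316 FPKM in WT replicate 1 and at 0 in the other 5 libraries. Rpl10, among the last proteins to join the 60S subunit, was at 166, 248 and 229 FPKM in WT and at 180, 287 and 182 FPKM in LKO. Rpl7 ranged from 67.9 to 124 FPKM in WT and from 93.5 to 155 FPKM in LKO. The groups overlapped for each of these genes.

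Rpl22, a protein that is not essential for translation, was at 21.0, 34.1 and 33.8 FPKM in WT and at 38.2, 41.7 and 34.1 FPKM in LKO. LKO replicate 3 exceeded WT replicate 2 by less than the printed digits show, and the fitted difference was 0.38. Rpl10a was at 48.0, 71.1 and 54.0 FPKM in WT and at 76.5, 79.1 and 79.6 FPKM in LKO. Rpl39, a short protein of the exit tunnel, ranged from 41.2 to 79.3 FPKM in WT and from 48.3 to 64.8 FPKM in LKO. Rpl41, the smallest ribosomal protein, ranged from 93.5 to 161 FPKM in WT and from 96.8 to 261 FPKM in LKO.

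The smallest p among differences below 0 was that of Rpl17, a protein at the rim of the exit tunnel. Rpl17 was at 157, 110 and 147 FPKM in WT and at 112, 75.1 and 64.0 FPKM in LKO. LKO replicate 1 lay just above WT replicate 2, and the difference was -0.74 ± 0.34 (SE, limma, 95% interval -1.52 to 0.04, adjusted p = 0.574). Rpl31, also at the tunnel exit, was at 128, 104 and 149 FPKM in WT and at 110, 95.6 and 61.1 FPKM in LKO (difference -0.54). Rpl34, Rpl24, Rpl28 and Rps12 completed the 6 smallest p on this side, with differences of -0.53, -0.39, -0.31 and -0.24. LKO replicate 3 was the lowest of the 6 libraries for all 6 of these genes. Pseudogene copies held 59.4%, 67.3% and 27.7% of the matching reads of Rpl17, Rpl24 and Rpl34, so these differences are uncertain. For Rpl31, Rpl28 and Rps12 the share was 9.84%, 5.33% and 2.66%.

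Rpl29 had the largest fitted difference, which rested on 2 of the 3 LKO libraries. Rpl29 is a small basic protein on the 60S surface, and its gene lies at chr9:106429454-106431568 (mm10, plus strand). In WT, 17, 5 and 7 reads gave 0.783, 0.252 and 0.398 FPKM. In LKO, 648, 10 and 999 reads gave 45.3, 0.568 and 46.7 FPKM. LKO replicate 2 lay inside the WT range, while the other LKO libraries were far above it. The difference was 3.37 ± 1.22 (SE, limma, 95% interval 0.51 to 6.24, adjusted p = 0.455). It was 5.01 (limma, adjusted p = 0.0188) without LKO replicate 2, 2.57 without LKO replicate 1, 2.54 without LKO replicate 3 and 1.31 with array quality weights. Dropping LKO replicate 2 removes the only LKO library without the rise, in a gene that had to differ. The p without that library is therefore no evidence of a difference.

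Genes beside Rpl29 on the chromosome did not share the pattern. Acy1, the next gene, was at 22.2, 23.9 and 21.7 FPKM in WT and at 18.4, 21.7 and 14.98 FPKM in LKO. Among all genes, a search made after seeing Rpl29 for genes at least 3 times higher in LKO replicates 1 and 3 than in each other library, with at least 2 FPKM, found Rpl29 and Gdf15. Gdf15, a stress-induced cytokine, was at 38.6, 8.53 and 18.8 FPKM in WT and at 154, 24.1 and 137 FPKM in LKO.

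Reads from Rpl29 mRNA could also be counted at its copies. GENCODE vM21 holds 53 pseudogene copies of Rpl29 at 90% identity or more over at least 50% of the principal transcript, 13 of them at 97% or more. The copy with most reads was Gm13841 (chr5:115801677-115802159, 99.4% identical), at 37.5, 58.6 and 50.1 FPKM in WT and at 17.9, 68.1 and 36.3 FPKM in LKO. LKO replicates 1 and 3, where Rpl29 was high, had its lowest values, though WT replicate 1 was close to the latter. The sum of Rpl29 and its copies was 21.8, 35.8 and 29.2 RPM (reads scaled to the library total) in WT and 61.8, 38.1 and 73.2 RPM in LKO. On that sum all LKO libraries were above all WT libraries, with LKO replicate 2 close to WT replicate 2. Rpl29, which had to differ, enters this sum, so the order is no evidence of a difference. Of all genes tested, 8% had that order in FPKM. The copies alone were at 21.0, 35.5 and 28.7 RPM in WT and at 10.8, 37.5 and 20.6 RPM in LKO. WT replicate 2 held 5 reads on Rpl29 and 624 on its copies, and LKO replicate 2 held 10 and 586. The order of these 2 libraries depends on the total used. The FPKM scale implies 17591750 and 15632552, while 17312282 and 16894024 reads were recovered. The highest library was 185 times the lowest for Rpl29 alone. No source used here says how reads that match several places were counted.

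Such copies touch most ribosomal protein genes. At least 1 pseudogene copy was found for 61 of the 77 genes and at least 10 for 28, with a median of 6, thresholds chosen after the levels were seen. In the median gene 3.18% of the reads on the gene and its copies lay in copies. They were over 50% for 6 genes, Rps10 (96.7%), Rpl24 (67.3%), Rpl29 (60.6%), Rpl17 (59.4%), Rpl21 (55.3%) and Rpl7a (54.5%), and the levels of these genes are uncertain. Rps10-ps2, a copy of Rps10, was at 33.7, 86.8 and 68.9 FPKM in WT and at 64.1, 148 and 102 FPKM in LKO, in each library far above Rps10 itself. Rpl21 was at 7.37, 6.45 and 6.93 FPKM in WT and at 23.9, 7.96 and 10.1 FPKM in LKO. With its 72 copies, Rpl21 summed to 77.4, 54.3 and 68.6 RPM in WT and to 123, 70.1 and 69.0 RPM in LKO, and the groups then overlapped.

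Several copies varied widely between libraries. The highest library was at least 8 times the lowest for 10 of 64 copies of members with at least 300 reads in all, and for 2 of the 77 genes, Rpl29 and Rps10. The median ratio of highest to lowest was 2.91 for these copies and 2.25 for the genes. Copies had far fewer reads than most of the genes, and low counts widen such a ratio, so the comparison is not at like depth. Rps10 itself had 8 to 58 reads per library. Gm8730, a copy of Rplp0, was at 71.0 FPKM in WT replicate 2 and between 1.52 and 2.55 FPKM in the other 5 libraries. Rpl34-ps1 was at 208, 13.8 and 9.77 FPKM in WT and at 229, 61.4 and 185 FPKM in LKO. Rpl34 itself was at 26.8, 61.7 and 65.2 FPKM in WT and at 30.9, 54.5 and 20.6 FPKM in LKO, lowest in the 3 libraries where the copy was highest. With its copies, Rpl34 summed to 146, 169 and 177 RPM in WT and to 165, 169 and 120 RPM in LKO.

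Copies of Rps3a1, a 40S gene outside the symbol rule, showed still wider ratios, and for Rps3a1 itself the highest library was 9.04 times the lowest. Rps3a2 was at 0.393, 73.5 and 84.3 FPKM in WT and at 35.1, 206 and 148 FPKM in LKO. Rps3a3 was at 0.196, 72.9 and 183 FPKM in WT and at 92.5, 195 and 110 FPKM in LKO. Rps3a1 was at 91.9, 163 and 18.0 FPKM in WT and at 107, 51.5 and 42.5 FPKM in LKO. WT replicate 1 thus held few reads on either copy, 6 and 3, while Rps3a1 was well covered there. Rps26-ps1 was at 8.66, 11.1 and 2.14 FPKM in WT and at 35.4, 53.9 and 38.3 FPKM in LKO, without overlap. This copy was picked after its values were seen, and 8% of all genes tested had all LKO libraries above all WT libraries. Rps26 itself overlapped, at 72.9, 104 and 99.5 FPKM in WT and at 82.8, 128 and 108 FPKM in LKO. Gm10020, a copy of Rpl15, was between 0.0929 and 13.8 FPKM. The division of reads between genes and copies was not tested.

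**Figure D3:**
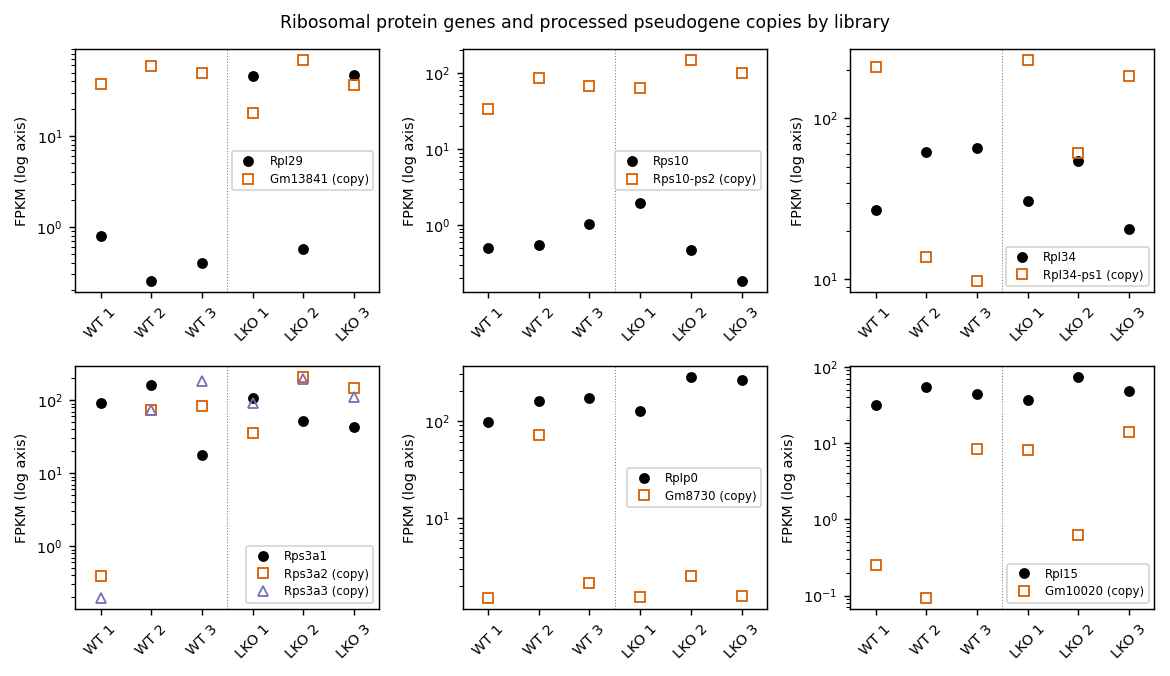
FPKM (log axis) by library of 6 ribosomal protein genes (filled circles) and pseudogene copies of them (open symbols), with a dotted line between WT and LKO. Rpl29 and Gm8730 are each high in 1 or 2 libraries only, and Rps10 lies below its copy in every library.

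Part of the members followed a common course over the libraries. The median over the 77 genes of log2(FPKM + 1) minus the WT mean was -0.20, 0.07 and 0.15 in WT and 0.15, 0.36 and -0.18 in LKO. The level of 46 members followed this median with a correlation over 0.5 across the 6 libraries (59.7%, against 16.03% of 10027 other tested protein-coding genes), and for 3 members, Rpl17, Rpl24 and Rpl29, it was below 0. The members enter the median themselves, so the shares are a description. The other 31 members did not reach 0.5, and respiratory chain subunits had a like course, at -0.36, 0.04 and 0.27 in WT and 0.15, 0.24 and -0.21 in LKO. The 5 other protein-coding genes most like it over the 6 libraries were Sbds (r = 0.99), Egfr, Hprt, Slc25a26 and Rabac1 (r = 0.98 for each of the last 2). Sbds, which acts in the maturation of the 60S subunit, was at 21.7, 28.1 and 28.3 FPKM in WT and at 30.01, 35.7 and 20.9 FPKM in LKO. These are the closest of all tested protein-coding genes over 6 points and share the libraries' scale.

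The 40S genes had a median difference of 0.12 (23 of 31 above 0) and the 60S genes of 0.04 (25 of 46 above 0). Neither sign was stable: with 1 library left out the medians ran from -0.03 to 0.32 for 40S and from -0.09 to 0.23 for 60S genes, the lowest without LKO replicate 2 and the highest without LKO replicate 3. Without WT replicate 1 they were -0.0035 and -0.04. The 60S median was also -0.07 scaled to the nuclear protein-coding total and -0.06 without both libraries numbered 1. Summed FPKM of 40S over 60S genes was 0.591, 0.606 and 0.596 in WT and 0.601, 0.648 and 0.623 in LKO. The groups overlapped, with means of 0.598 ± 0.00764 (SD, n = 3) and 0.624 ± 0.0236 (SD, n = 3).

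The shortest members shared part of the spread between libraries with other short genes, while longer members did not follow genes of their length as closely. Across members, centred level and log2 transcript length correlated at -0.39 (WT replicate 3) to 0.25 (WT replicate 2). In the 26 members with principal transcripts of up to 579 bases, the centred median was -0.16, -0.07 and 0.22 in WT and 0.37, 0.29 and -0.48 in LKO. In the 26 longest it was -0.34, 0.18 and 0.07 in WT and -0.01, 0.39 and -0.16 in LKO. The 169 other tested protein-coding genes of that length had -0.11, -0.07 and 0.20 in WT and 0.43, 0.13 and -0.37 in LKO. The short members thus lay low in LKO replicate 3 and high in LKO replicate 1, as other short genes did. With a correction for merged exon length, 0 members were called by limma and their median difference was 0.10. That length is not the principal transcript length used for the classes above, so the correction does not act on it directly.

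No gene of the other translation lists passed an adjusted p under 0.05 by limma. Most of their fitted differences were above 0, where 54.1% of all genes were. Of 60 tested ribosome biogenesis genes, 58 were above 0, with a median of 0.38, and 8 were higher and 0 lower at an unadjusted p under 0.05, where 4.28% and 4.93% of all genes were. All LKO libraries were above all WT libraries for 8 of them (13.3%), against 8% of all genes. Their centred median was 0.07, -0.04 and 0.00 in WT and 0.56, 0.61 and -0.11 in LKO, so LKO replicate 3 lay below the WT libraries. Utp4, a component of the small subunit processome, was at 1.82, 2.87 and 2.93 FPKM in WT and at 5.63, 5.93 and 4.52 FPKM in LKO, a difference of 0.86 ± 0.24 (SE, limma, adjusted p = 0.325). Ltv1, a factor of 40S maturation, was at 3.02, 3.51 and 2.10 FPKM in WT and at 6.90, 8.37 and 4.04 FPKM in LKO (0.91 ± 0.30, SE, limma, adjusted p = 0.417). Bop1, a factor of 60S maturation, was at 3.49, 6.59 and 3.64 FPKM in WT and at 6.65, 10.5 and 9.42 FPKM in LKO. Neither of the last 2 overlapped between the groups, nor did Utp4.

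Among 30 initiation factors, which bring mRNA and initiator tRNA to the 40S subunit, 26 were above 0, with a median of 0.41, and 3 were higher and 0 lower at an unadjusted p under 0.05. Eif3a, the scaffold of the eIF3 complex, was at 12.5, 16.7 and 13.5 FPKM in WT and at 24.0, 23.3 and 23.1 FPKM in LKO (0.69 ± 0.25, SE, limma, adjusted p = 0.445). Eif2s3x was at 2.30, 3.01 and 2.60 FPKM in WT and at 3.49, 5.39 and 8.73 FPKM in LKO. The groups were apart for both genes, which were picked by their small p. All LKO libraries were above all WT libraries for 4 of the 30 (13.3%), against 8% of all genes tested. Of 18 genes listed as translation factors and others with TOP starts, 15 were above 0, with a median of 0.25, and 1 was higher and 0 lower at that p. That gene was Nap1l1, a nucleosome assembly protein, at 4.01, 4.13 and 3.72 FPKM in WT and at 5.49, 6.03 and 6.56 FPKM in LKO (0.50 ± 0.21, SE, limma, adjusted p = 0.529). Eef1b2, an exchange factor of the elongation complex, was at 21.4, 46.4 and 28.2 FPKM in WT and at 41.3, 71.4 and 53.3 FPKM in LKO (limma, adjusted p = 0.585).

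Another 5 lists had medians between 0.00 and 0.13. The 77 mitochondrial ribosomal proteins had a median of 0.04 with 42 above 0, the 83 respiratory chain subunits 0.06 with 54 above 0, and the 14 proteasome core subunits 0.13 with 11 above 0. The 27 mTOR and TOP regulators had a median of 0.08, or -0.03 with libraries scaled to their nuclear protein-coding total. In that list Ddit4, an inhibitor of mTOR complex 1, was at 2.45, 1.55 and 4.74 FPKM in WT and at 8.07, 37.1 and 5.43 FPKM in LKO. It was picked as the gene with the smallest p of the 27 (limma, adjusted p = 0.458). Next by p were Tfeb, with a difference of -0.44 (limma, adjusted p = 0.651), and Eif4ebp1, with 0.50 (limma, adjusted p = 0.771). The 9 snoRNA host RNAs with TOP starts had a median of 0.00. Fau, a ribosomal protein gene outside the symbol rule, whose product is a fusion of a ubiquitin-like protein with a 40S protein, was at 147, 281 and 259 FPKM in WT and at 261, 356 and 270 FPKM in LKO. Whether any list differs from the ribosomal proteins was not tested.

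**Figure D4:**
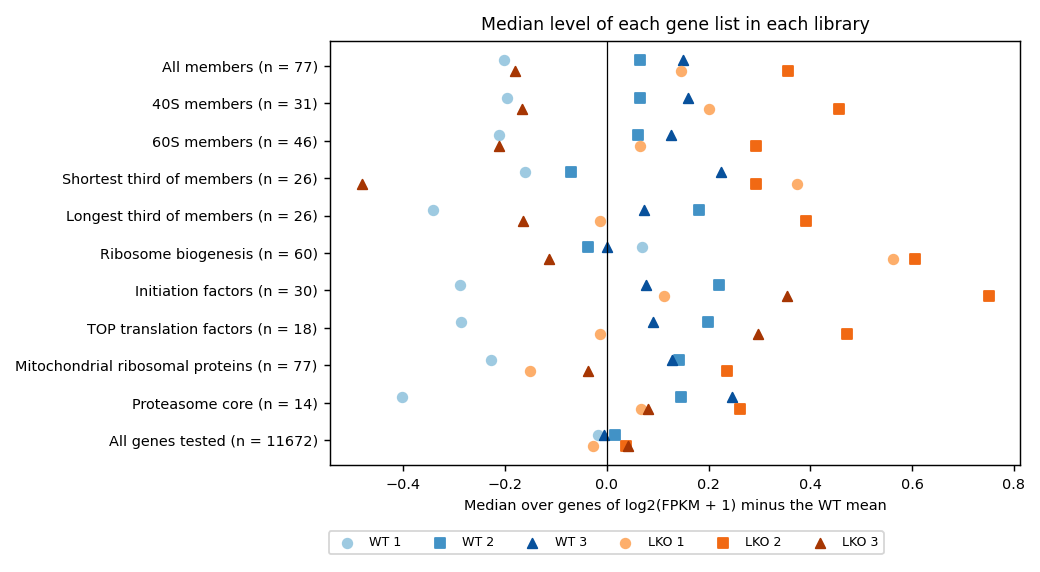
Median over the genes of each list of log2(FPKM + 1) minus the WT mean, per library, with WT in blue and LKO in orange. The ribosomal protein genes reach from -0.20 to 0.36 with WT and LKO mixed, while ribosome biogenesis genes are at 0.56 and 0.61 in LKO replicates 1 and 2 and at -0.11 in LKO replicate 3.

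Other values moved with the libraries beside these levels. Reads on the mitochondrial genome were 20.7%, 10.2% and 18.5% in WT and 27.6%, 7.72% and 4.76% in LKO. Neutrophil markers (4 of 6 tested) summed to 3.74, 0.803 and 3.39 FPKM in WT and to 15.9, 11.1 and 3.25 FPKM in LKO. That sum includes S100a8 and Retnlg, with WT means of 0.384 and 0.204 FPKM, which passed the 0.5 FPKM rule only through LKO. Erythroid markers (5 of 6 tested) summed to 139 to 330 FPKM in WT and to 91.2 to 149 FPKM in LKO, and Kupffer cell markers (8 of 9 tested) to 24.1 to 63.0 and 25.8 to 65.3 FPKM. Endothelial markers (6 of 6 tested) summed to 18.7 to 29.0 FPKM in WT and to 11.2 to 29.5 FPKM in LKO. Biliary markers (2 of 5 tested) summed to 9.49 to 17.5 FPKM in WT and to 6.67 to 25.8 FPKM in LKO, and stellate cell markers (7 of 7 tested) to 11.6 to 15.4 and 11.4 to 18.8 FPKM. Of 6 B and plasma cell markers 2 were tested, the plasma cell genes Jchain and Mzb1. Jchain was at 1.24, 0.632 and 0.636 FPKM in WT and at 0.219, 0.305 and 0.607 FPKM in LKO. Mzb1 was at 3.38, 0.817 and 1.91 FPKM in WT and at 0, 0.0707 and 0.233 FPKM in LKO. Both were lower in every LKO library than in every WT library, as 7.42% of all genes were. Both passed the 0.5 FPKM rule only through their WT values, so the rule favoured this order. T and NK cell markers (1 of 7 tested) were below 1 FPKM in sum in every library. Their part in the levels of the ribosomal protein genes was not tested.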

How the data were processed

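RNA of 6 liver libraries was measured, 3 per genotype, grouped by sample title. The authors deposited 1 table of FPKM per library. The submitters' processing notes give the build mm10 and list featureCounts (1.5.0-p3), HISAT2 (2.0.5), DESeq2 (1.20.0) and CASAVA. The strand setting, the annotation release and the handling of reads that match several places have no statement in these sources. GENCODE vM21 named 54495 of 54532 identifiers and gave the exon lengths. FPKM times merged exon length fell on steps that recovered whole reads for 96.1% to 96.4% of values above 0 (within 0.05 read). The total implied by these steps was not the number of recovered reads. It was 19279636 against 16889737 reads in WT replicate 1, and 12704133 against 13947787 in LKO replicate 1. Intervals cover the spread between samples.

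The comparison used limma 3.58.1 (R 4.3.3), trend and robust, on log2(FPKM + 1) over genes averaging 0.5 FPKM or more, genotype only, two-sided, with Benjamini-Hochberg adjustment over 11672 genes and a threshold of 0.05. Differences are LKO minus WT on that scale and understate changes of low genes. On simulated data with 11672 genes it called 2.41% of 83 genes changed 2-fold, 53.3% of 60 changed 4-fold and 96.5% of 57 changed 16-fold. It also called 4 unchanged genes. Those changes were made on the log2(FPKM + 1) scale, in genes above a low level. The noise was normal and independent for each gene, without deviations shared by a library, so the shares hold for that setting only. Alternatives were another pseudocount (0.1), other filters (none, or a mean of 1 FPKM), a replicate block, libraries left out, other scalings, voom on recovered reads, a length correction and array weights. Copies were found with blastn 2.17.0. Python 3.11.15, pandas 2.3.3 and matplotlib 3.10.9 were used.

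Members, lists and tests were chosen with earlier results of these data known. Named were a set of well-known members, the 6 members with the smallest p per direction, the 3 highest and lowest, those at the 0.5 FPKM rule, up to 3 genes with the smallest p per list, and the 5 genes most like the member median. Copies, neighbours, motifs, length classes, Gdf15, Rpl10a, Rps18, Rpl7a and other genes outside that rule were added after values were seen. Results that need items withheld for evaluation are not reported here.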

Additional observations from a re-analysis of the deposited data

How the results depend on the processing

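Of the recomputed counts, medians and sums, 205 stayed within the spread (or 1.5 times, for counts) and 32 moved further; 39 of the 150 medians and sums that stayed within it changed sign. For named genes, 550 differences kept direction and side of the threshold, 58 changed sign and 3 (Rpl29, Rps21 and Rpl17) passed it only under an alternative. Among all genes, array quality weights gave 621 higher and 574 lower, no filter 0 and 1, quantile normalization 0 higher, and leaving out both libraries numbered 1 gave 1 lower. Leaving out 1 library gave 0 to 13 higher and 0 to 4 lower. For the members, array quality weights gave 1 higher and 1 lower, and leaving out 1 library 0 to 1 higher. Without LKO replicate 2 that 1 was Rpl29, which had to differ. Members whose LKO libraries were all above WT numbered 7 to 16, and all below 0 to 5, with 1 library left out, and 17 and 8 without both libraries numbered 1; fewer libraries must be separated there. Whether replicate numbers pair the libraries cannot be decided from 3 libraries per group. The deviations of same-numbered libraries correlated at 0.49, 0.30 and -0.02 over all genes. The libraries numbered 1 were each other's closest match. WT replicate 2 correlated better with LKO replicate 3 (0.45) than with the LKO library of its own number. With the replicate number as a block, 0 genes were higher and 0 lower, with or without a length correction, and the member median was 0.08. The median of the mTOR list was -0.025 scaled to the coding total, that of hepatocyte markers -0.32 without both libraries numbered 1, and that of erythroid markers -1.36 to -0.56 with 1 library left out. The cause of these shifts was not tested.

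Members near 0 changed sign. Scaled to the coding total, Rpl11 was at -0.077, Rpl23 at -0.086, Rplp1 at -0.040, Rps27l at -0.10 and Rpsa at -0.10. After quantile normalization Rpl11 and Rpl23 were at -0.11, Rps27 at -0.017, and Rps27l and Rpsa at -0.14. Array weights gave Rpl10 0.19, Rpl11 -0.036, Rps10 -0.31 and Rps27l -0.16. Length correction, without or with the replicate block, gave Rps15 0.021 and Rpsa -0.026. Rps10 was at -0.12 with a pseudocount of 0.1 and at -0.34 with voom. Without both libraries numbered 1, Rpl11 was at -0.21, Rpl23 at -0.019, Rplp1 at -0.21, Rps10 at -0.42, Rps27l at -0.37 and Rpsa at -0.060. With 1 library left out the ranges were -0.22 to 0.12 for Rpl10, -0.11 to 0.24 for Rpl11, -0.54 to 0.14 for Rpl13a, -0.15 to 0.15 for Rpl23, -0.58 to 0.030 for Rpl28, -0.75 to 0.056 for Rpl36, -0.34 to 0.13 for Rpl39, -0.013 to 0.70 for Rpl41 and -0.15 to 0.58 for Rpl5. They were -0.28 to 0.26 for Rplp1, -0.34 to 0.32 for Rps10, -0.31 to 0.24 for Rps15, -0.16 to 0.45 for Rps27, -0.17 to 0.57 for Rps27a, -0.20 to 0.25 for Rps27l and -0.15 to 0.18 for Rpsa.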
